A study of Drosophila melanogaster with 6 samples.

Results

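A set of 10 G protein-coupled receptors through which *Drosophila* cells sense neuropeptides was followed in male brains whose blood-brain barrier (BBB) had been feminized. The 10 receptor genes were *ETHR*, *Dh44-R1*, *Dh44-R2*, *TkR86C*, *TkR99D*, *NPFR*, *sNPF-R*, *Pdfr*, *SIFaR* and *SPR*. They were chosen by gene name, with earlier results of these data known. All of their rows in the deposited table were used, which gave 26 transcripts of 28071 in the table and 10 genes of 13453. After the filter on low counts 24 of the 26 transcripts and all 10 genes were tested, among 21208 transcripts and 9777 genes.

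RNA was taken from dissected brains, their BBB intact, of males 4 to 5 days old, in 6 libraries. The feminized males (SPG-GAL4/UAS-TraF) expressed the female form of the splicing regulator Transformer in the subperineurial glia, the barrier-forming cells in which the *moody*-derived SPG-GAL4 driver is active. The controls carried only the driver (+/SPG-GAL4) or only the transgene (+/TraF), and all 3 genotypes shared an outcrossed w1118 background. Each genotype had 2 biological replicates, each a pool of many brains, so that the spread between libraries is a spread between pools. Because whole brains were measured, fewer cells of a type and less RNA per cell cannot be told apart, nor can changes inside the barrier and outside it.

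Neuropeptides are small secreted proteins that act on such receptors, often far from the site of release, and most of the receptors signal through G proteins to cyclic AMP, calcium or ion channels. *ETHR* is the receptor of ecdysis triggering hormone, which starts the moulting sequence of larvae and pupae and in adults acts on the gland that makes juvenile hormone. The other receptors are known from feeding, sleep, circadian timing, courtship and the response of females to mating.

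The main findings for the family were as follows. At the level of whole genes, 0 of the 10 receptors passed the threshold (adjusted p below 0.1, edgeR quasi-likelihood test with Benjamini-Hochberg adjustment) in feminized males against both controls, where 0% of the 9777 genes did. The log2 fold changes of the 10 gene sums lay between -0.20 and 0.03, with a median of -0.06 beside -0.01 over all genes tested. None of the 10 had an unadjusted p below 0.05, against 4.68% of all genes, and DESeq2 called none of them and 0.254% of all genes. Within genes, 1 of the 8 receptors with several tested transcripts changed its transcript usage, *ETHR*, against a background of 1.31% of 5109 genes. *ETHR* was already on the study's list of changed transcripts from these libraries, so its call is not independent evidence. The call was lost when transcripts with the same coding part were summed. The transcript *ETHR-RA* had no counts in both feminized libraries and between 24 and 110 in the 4 controls.

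*ETHR* (FBgn0038874) lies on the plus strand of chromosome arm 3R, 21247011 to 21265134 in BDGP6. Its 3 annotated transcripts have 5 exons each. *ETHR-RA* (FBtr0084054, 3390 nt) and *ETHR-RC* (FBtr0339194, 3397 nt) have the same coding part of 471 codons. They differ only in the 7 bases by which the untranslated first exon of *ETHR-RC* is longer, and in the splice junction there. *ETHR-RB* (FBtr0084053, 2716 nt) has another last exon and 461 codons. The counts of *ETHR-RA* and *ETHR-RC* are therefore an estimate of how the reads of nearly identical RNAs divide, and rest on the few reads over that junction.

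**Figure D1:**
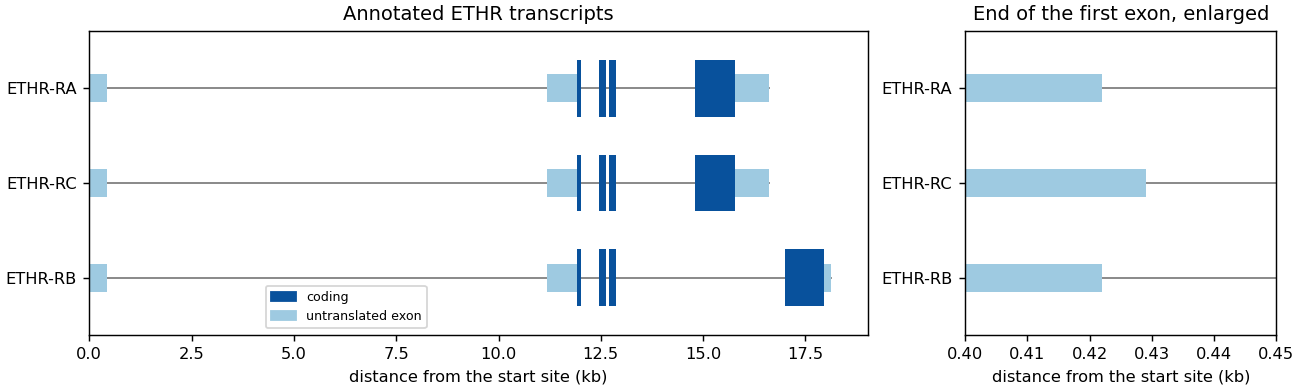
Exons of the 3 annotated ETHR transcripts, drawn as boxes against the distance from the start site in kilobases (tall dark boxes are coding, low light boxes untranslated, lines are introns). The right panel enlarges the end of the first exon, where ETHR-RC is 7 bases longer than ETHR-RA and ETHR-RB, while ETHR-RB alone ends in the most distant exon.

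*ETHR-RA* had 0 and 0 counts in feminized males, against 67 and 52 in +/SPG-GAL4 and 24 and 110 in +/TraF males. Scaled to a common library size with TMM factors (normalized counts, as in all values that follow), this was 0 and 0 in feminized males, against 73.1 and 49.8 in +/SPG-GAL4 and 24.9 and 109 in +/TraF males. Both feminized libraries were below all 4 controls, while the control genotypes overlapped and the +/TraF libraries were far apart. The bounds that follow take the estimated counts as exact, although the split from *ETHR-RC* rests on few reads. With a floor of 3 counts in each feminized library, *ETHR-RA* was at least 22.1-fold lower than the control mean of 64.2 ± 35.8 (SD, n = 4). It was at least 8.60-fold lower than the lowest control. The bound was 21.2-fold against +/SPG-GAL4 and 23.1-fold against +/TraF. Across all transcripts this did not pass in the edgeR quasi-likelihood test (Benjamini-Hochberg adjusted p = 0.520), which called 0 of the 24 receptor transcripts and 0.0141% of all transcripts. Of the 24, 3 (*ETHR-RA*, *ETHR-RC* and *NPFR-RB*) had both feminized libraries beyond all controls, beside 14.9% of all transcripts. DESeq2, run on the same counts, called *ETHR-RA* (adjusted p = 0.000210) and no other receptor transcript, and 1.25% of all transcripts. The adjusted p over all alternatives ran between 0.000210 and 0.901, so the call depends on the tool. The study's list of changed transcripts, drawn from these same libraries, also names *ETHR-RA*, but the control values beside it there differ from the deposited counts of this transcript. That entry and the DESeq2 call are therefore no independent evidence for each other.

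*ETHR-RC* showed the reverse order. Normalized counts were 134 and 135 in feminized males, against 84.0 and 94.8 in +/SPG-GAL4 and 107 and 30.8 in +/TraF males. Both feminized libraries were above all 4 controls, and the log2 fold change was 0.77 (SE 0.48), with an adjusted p of 0.999 in the edgeR quasi-likelihood test. The library with the most *ETHR-RA*, +/TraF replicate 2, had the least *ETHR-RC*.

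Summed, *ETHR-RA* and *ETHR-RC* had 134 and 135 normalized counts in the feminized males, against 157 and 145 in +/SPG-GAL4 and 132 and 140 in +/TraF males. Feminized and +/TraF males overlapped, and both +/SPG-GAL4 libraries were above the other 4. The log2 fold change of the sum against both controls was -0.07 (SE 0.16; adjusted p = 0.999, edgeR quasi-likelihood test over transcripts summed by coding part, which called 0.019% of all such sums). The coefficient of variation over the 6 libraries was 6.57% for the sum, against 101% for *ETHR-RA* and 39.7% for *ETHR-RC*. The RNA of the 471-codon receptor thus varied less between libraries than its division between both transcripts.

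*ETHR-RB* had 56.6 and 88.7 normalized counts in the feminized males, against 87.2 and 94.8 in +/SPG-GAL4 and 75.9 and 94.3 in +/TraF males. Feminized replicate 1 was the lowest library and replicate 2 lay within the controls (log2 fold change -0.28, SE 0.29). The gene sum of *ETHR* was 191 and 225 in feminized males, against 254 and 235 in +/SPG-GAL4 and 207 and 231 in +/TraF males, with a log2 fold change of -0.16 (SE 0.13; adjusted p = 0.999, edgeR quasi-likelihood test).

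**Figure D2:**
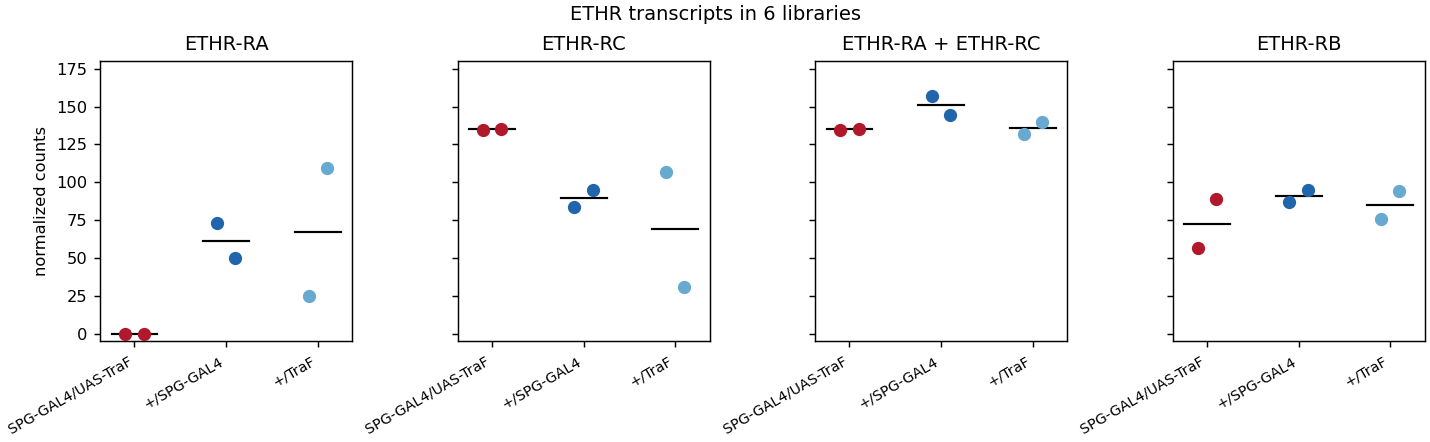
Normalized counts of ETHR-RA, ETHR-RC, their sum and ETHR-RB in each library (points) with the mean of each genotype (lines, n = 2). ETHR-RA is at 0 in both SPG-GAL4/UAS-TraF libraries, while the sum of ETHR-RA and ETHR-RC lies between 132 and 157 in all 6 libraries.

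The usage test compares how the counts of a gene divide over its transcripts. For *ETHR* it gave an adjusted p of 0.00465 (diffSpliceDGE of edgeR, Benjamini-Hochberg over 5109 genes). *ETHR-RA* made up 0% and 0% of the gene's counts in feminized males, against 29.9% and 20.8% in +/SPG-GAL4 and 12% and 46.6% in +/TraF males. *ETHR-RC* made up 70.4% and 60.4% in feminized males, against 34.4% and 39.6% in +/SPG-GAL4 and 51.5% and 13.1% in +/TraF males. *ETHR-RB* took between 29.6% and 40.3% in all 6 libraries. The change was therefore between the transcripts with the same coding part, and with these summed the usage test no longer called *ETHR* (adjusted p = 1). It was also lost when at least 10 counts were asked of every library (adjusted p = 0.574), a filter that removes *ETHR-RA* itself.

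Of the counts of *ETHR-RA* and *ETHR-RC* together, *ETHR-RA* had 0 of 140 and 0 of 139 in feminized males, which allows shares of up to 2.14% and 2.16% (3 counts of the total). It had 46.5% (exact 95% binomial interval 38.2 to 55.0%) and 34.4% (26.9 to 42.6%) in +/SPG-GAL4 males. In +/TraF males it had 18.9% (12.5 to 26.8%) and 78.0% (70.3 to 84.5%). The intervals of the +/TraF replicates do not overlap. All intervals and limits treat each estimated count as a read that tells both transcripts apart, while only the few reads over the junction do. They are therefore too narrow, and whether control libraries differed by more than counting error cannot be told from them. The error of dividing reads between transcripts was not used here.

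Among all tested genes, those whose centred log2 levels over the 6 libraries differed least from the *ETHR* gene sum were *CG32536*, *MFS10* and *CG5850*, with root mean square differences of 0.04, 0.05 and 0.05, against a median of 0.18 over 9776 genes. All 3 had their highest level in +/SPG-GAL4 replicate 1 and their lowest in feminized replicate 1, as *ETHR* did. They were picked for this likeness, so it is not a separate result.

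In brains of all 3 genotypes the receptors fell into 5 groups whose ranges did not overlap. Levels of different genes were compared as TPM, the counts per annotated transcript length scaled to a fixed total in each library. *SPR* was highest, at 98.0 and 92.7 TPM in feminized males, against 99.04 and 95.2 in +/SPG-GAL4 and 105 and 109 in +/TraF males. *Dh44-R2* followed with 60.4 to 65.2 TPM over the 6 libraries, and its range did not overlap that of its neighbours. *Dh44-R1* (35.3 to 45.7 TPM), *sNPF-R* (33.5 to 44.4), *Pdfr* (30.5 to 49.97) and *TkR99D* (31.4 to 42.1) overlapped, and their order is within the spread of libraries. *NPFR* (14.2 to 17.7 TPM), *SIFaR* (12 to 17.4) and *TkR86C* (10.9 to 15.9) overlapped likewise. *ETHR* was lowest, with 3.63 and 4.34 TPM in feminized males, against 5.19 and 4.63 in +/SPG-GAL4 and 3.86 and 4.28 in +/TraF males.

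**Figure D3:**
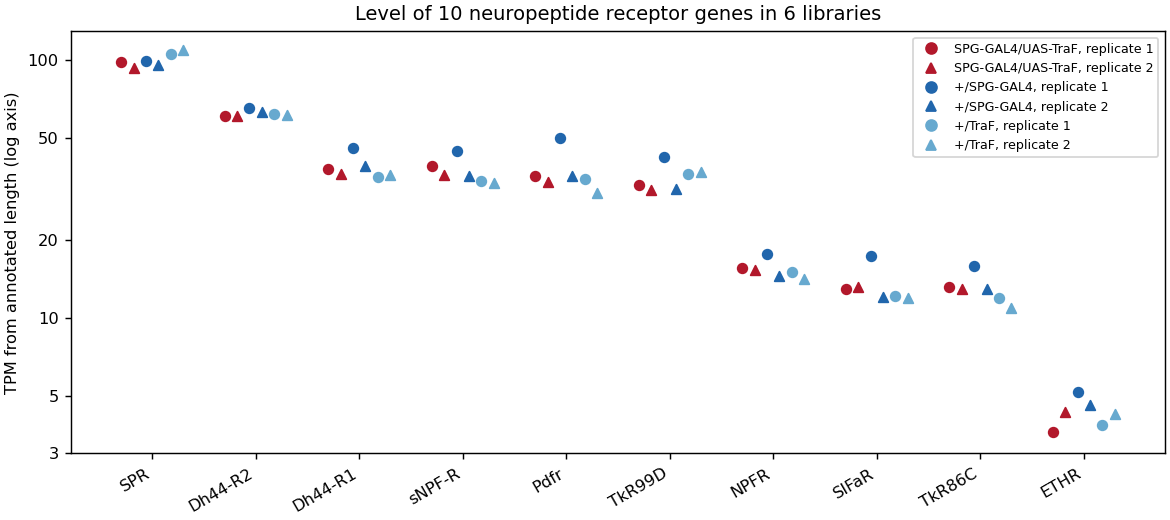
TPM of each receptor gene in each library on a log axis (colours are genotypes, circles replicate 1, triangles replicate 2). SPR lies at 92.7 to 109 TPM and ETHR at 3.63 to 5.19 TPM, and +/SPG-GAL4 replicate 1 is the highest library for every gene but SPR.

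*Dh44-R1* and *Dh44-R2* encode the receptors of diuretic hormone 44, relatives of the vertebrate receptors for corticotropin-releasing factor, with roles in fluid balance, nutrient sensing and daily rest and activity. The *Dh44-R2* gene sum (FBgn0033744, 2R, 12474424 to 12487986, plus strand) had 2535 and 2522 normalized counts in the feminized males, against 2586 and 2587 in +/SPG-GAL4 and 2657 and 2651 in +/TraF males. It was the 1 receptor of 10 for which neither feminized library fell within the span of the 4 controls, beside 13.7% of all genes. The difference was small, with a log2 fold change of -0.05 (SE 0.06; adjusted p = 0.999, edgeR quasi-likelihood test). It was also the most even of the 10 sums, with a coefficient of variation of 2.18%. Its transcripts *Dh44-R2-RA* and *Dh44-R2-RB* were near equal, *Dh44-R2-RB* taking 51.7% and 49.96% of the counts in feminized males, against 53.2% and 50.9% in +/SPG-GAL4 and 50.7% and 48.2% in +/TraF males. On the minus strand *CG34234* and *fdl* share 551 and 536 exonic bases with *Dh44-R2*. The library kit does not mark strand, so reads from those bases cannot be told apart.

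*Dh44-R1* (FBgn0033932, 2R, 14378097 to 14385359, plus strand) has 1 transcript. Its gene sum was 1553 and 1503 in feminized males, against 1778 and 1578 in +/SPG-GAL4 and 1508 and 1546 in +/TraF males. The feminized and +/TraF libraries interleaved and all lay below both +/SPG-GAL4 libraries. The log2 fold change against both controls was -0.07 (SE 0.08).

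*TkR99D* and *TkR86C* encode the receptors related to vertebrate tachykinin receptors. *TkR99D* responds to tachykinins, and *TkR86C* is the receptor of natalisin, a peptide linked to mating behaviour. The *TkR99D* gene sum (FBgn0004622, 3R, 29950796 to 29969447, minus strand) was 1565 and 1513 in feminized males, against 1903 and 1501 in +/SPG-GAL4 and 1797 and 1853 in +/TraF males. Both feminized libraries were below both +/TraF libraries and below +/SPG-GAL4 replicate 1, but not below +/SPG-GAL4 replicate 2. Its log2 fold change of -0.20 (SE 0.10) was the lowest of the 10 and had the smallest unadjusted p of them in the edgeR quasi-likelihood test (0.0863; adjusted p = 0.999). Against +/TraF alone it was -0.25 (SE 0.11; adjusted p = 0.733).

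*TkR99D-RA* and *TkR99D-RC* have identical exons, differ only in where their coding part is annotated to end, and have identical counts in every library. Each took 48.1% and 47.1% of the gene in feminized males, against 49.3% and 45.6% in +/SPG-GAL4 and 45.4% and 46.3% in +/TraF males. Such counts say nothing of the share of either. *TkR99D-RB*, which lacks 6 bases, took the rest, 1.37% to 9.27%. *TkR86C* (FBgn0004841, 3R, 10737592 to 10751228, minus strand) had 657 and 642 normalized counts in the feminized males, against 748 and 626 in +/SPG-GAL4 and 608 and 571 in +/TraF males (log2 fold change 0.03, SE 0.11). Its longer transcript *TkR86C-RB* took 64.4% and 58.9% in feminized males, against 62.4% and 52.0% in +/SPG-GAL4 and 57.0% and 63.4% in +/TraF males. For the gene sum feminized and +/SPG-GAL4 males overlapped and both +/TraF libraries were below them, while for the share all 3 genotypes overlapped.

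*NPFR* and *sNPF-R* encode the receptors of neuropeptide F and short neuropeptide F, which act in feeding and arousal. The *NPFR* gene sum (FBgn0037408, 3R, 6187315 to 6195403, plus strand) was 796 and 788 in feminized males, against 870 and 742 in +/SPG-GAL4 and 813 and 776 in +/TraF males (log2 fold change -0.02, SE 0.08). Inside this even sum a minor transcript stood apart. *NPFR-RB* (FBtr0308316, 2433 nt) had 105 and 101 normalized counts in the feminized males, against 64.3 and 58.4 in +/SPG-GAL4 and 65.5 and 53.6 in +/TraF males. Both feminized libraries were above all 4 controls, and the control genotypes were alike (60.5 ± 5.5, SD, n = 4). That SD is the spread of estimated counts between libraries and leaves out the error of dividing reads between transcripts. The log2 fold change was 0.77 (SE 0.24), which did not pass over all transcripts (edgeR quasi-likelihood test, adjusted p = 0.773, unadjusted p = 0.0177, where 5.32% of all transcripts had one below 0.05). DESeq2 gave an adjusted p of 0.307.

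*NPFR-RB* took 13.1% and 12.9% of the gene's counts in feminized males, against 7.69% and 7.72% in +/SPG-GAL4 and 8.02% and 6.81% in +/TraF males. The main transcript *NPFR-RA* took 83.9% and 85.1% in feminized males, against 92.3% and 88.0% in +/SPG-GAL4 and 89.7% and 90.4% in +/TraF males. *NPFR-RB* has 2 splice junctions that *NPFR-RA* lacks, and 466 codons in place of 485. It has no exonic bases that *NPFR-RA* lacks, while *NPFR-RA* has 781 that *NPFR-RB* lacks. The counts of *NPFR-RB* are therefore an estimate of how shared reads divide, as for *ETHR-RA*. The usage test over the whole gene did not call *NPFR* (adjusted p = 1, diffSpliceDGE of edgeR). *NPFR-RC* ranged from 0 to 32.6 normalized counts, and *NPFR-RD* had none in any library and was not tested.

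*sNPF-R* (FBgn0036934, 3L, 20058511 to 20089007, minus strand) had gene sums of 2560 and 2362 in feminized males, against 2754 and 2298 in +/SPG-GAL4 and 2331 and 2313 in +/TraF males (log2 fold change 0.02, SE 0.09). +/SPG-GAL4 replicate 1 was the highest, and the other 3 controls were close to each other and below both feminized libraries. *sNPF-R-RA* and *sNPF-R-RB* have the same coding part of 600 codons, and *sNPF-R-RB* took 71.2% and 67.6% in feminized males, against 69.2% and 69.2% in +/SPG-GAL4 and 73.0% and 68.8% in +/TraF males.

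*Pdfr* is the receptor of pigment dispersing factor, which keeps clock neurons in phase. Its gene sum (FBgn0260753, X, 2552206 to 2578640, plus strand) was 1897 and 1809 in feminized males, against 2519 and 1861 in +/SPG-GAL4 and 1915 and 1719 in +/TraF males. The log2 fold change was -0.11 (SE 0.14), and the sum varied most of the 10 (coefficient of variation 14.6%). *Pdfr-RC* and *Pdfr-RD* share a coding part of 724 codons, and as in *ETHR* their shares moved against each other. *Pdfr-RC* took 42.1% and 49.4% in feminized males, against 52.7% and 33.4% in +/SPG-GAL4 and 53.8% and 56.8% in +/TraF males. *Pdfr-RD* took 42.1% and 31.3% in feminized males, against 25.4% and 47.1% in +/SPG-GAL4 and 28.4% and 24.2% in +/TraF males. The split differed most between the +/SPG-GAL4 replicates, whose *Pdfr-RC* shares lay on both sides of those of feminized males. Both +/TraF libraries had higher *Pdfr-RC* shares than the other 4 and lower *Pdfr-RD* shares than both feminized libraries, and the usage test did not call *Pdfr* (adjusted p = 1, diffSpliceDGE of edgeR). The coefficient of variation was 23.5% and 27.2% for *Pdfr-RC* and *Pdfr-RD* and 10.8% for their sum.

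*SIFaR* is the receptor of SIFamide, a peptide of a few neurons that acts in courtship, sleep and feeding. Its gene sum (FBgn0038880, *SIFaR-RC* at 3R, 21276664 to 21293998, minus strand) was 1082 and 1108 in feminized males, against 1371 and 1000 in +/SPG-GAL4 and 1055 and 1056 in +/TraF males (log2 fold change -0.03, SE 0.13). Without +/SPG-GAL4 replicate 1, both feminized libraries were above the 3 other controls and the log2 fold change was 0.08 (SE 0.05; adjusted p = 0.392, edgeR quasi-likelihood test). *SIFaR-RC* was its 1 transcript in the table, and *SIFaR-RA* was not analysed here.

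*SPR*, the receptor of sex peptide and of myoinhibitory peptides (Mip), is needed in females for the response to mating. Its gene sum (FBgn0029768, X, 5446656 to 5494012, plus strand) was 5357 and 5109 in feminized males, against 5114 and 5164 in +/SPG-GAL4 and 5973 and 6284 in +/TraF males. The +/TraF libraries were above the other 4. The log2 fold change of feminized males was 0.03 (SE 0.09) against +/SPG-GAL4 and -0.23 (SE 0.09; adjusted p = 0.666) against +/TraF. Between the controls, +/SPG-GAL4 against +/TraF, it was -0.25 (SE 0.09; adjusted p = 0.578). None of these passed in the edgeR quasi-likelihood test, and the comparisons share libraries. Feminized and +/SPG-GAL4 males overlapped, and the cause of the higher level in +/TraF males was not tested.

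*SPR-RB* took most of the counts, 76.8% and 75.9% in feminized males, against 75.02% and 79.98% in +/SPG-GAL4 and 78.7% and 82.6% in +/TraF males. *SPR-RA* and *SPR-RD* have identical exons and identical counts, with 7.56% to 12.5% each. *SPR-RC* had 146 normalized counts in +/TraF replicate 2 and none in the other 5 libraries, and was not tested. On the minus strand *frma* shares 999 exonic bases with *SPR*, at 16.3 and 24.4 normalized counts in the feminized males, against 18.2 and 27.3 in +/SPG-GAL4 and 37.3 and 32.3 in +/TraF males. Like *SPR* it was highest in +/TraF, and without strand the reads of the shared bases cannot be told apart. Its counts were far below the *SPR* gene sums of 5109 to 6284, and its part in them was not tested.

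**Figure D4:**
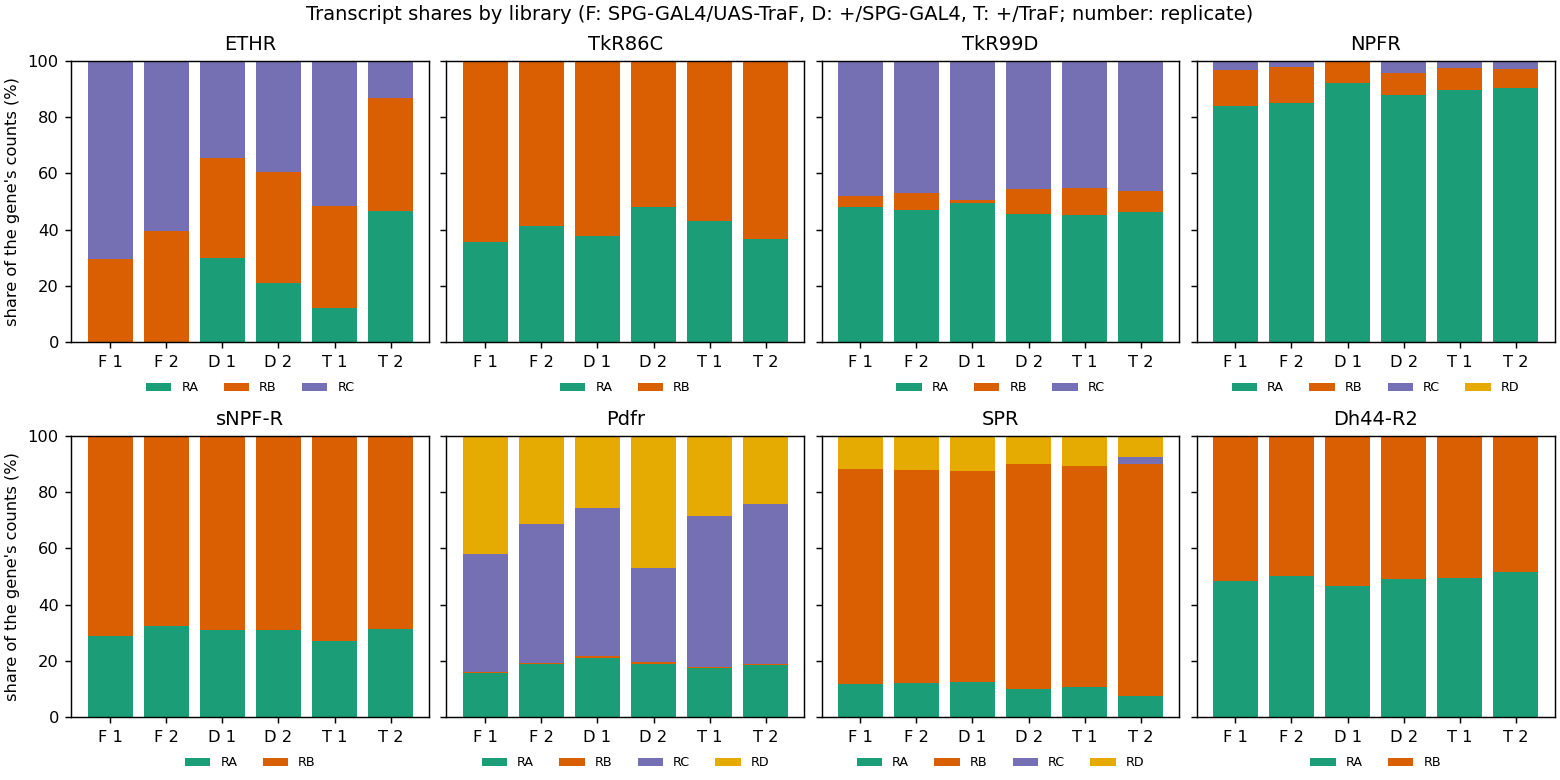
Share of each transcript in the counts of its gene (percent, stacked bars) for the 8 receptors with several transcripts, one bar per library (F, SPG-GAL4/UAS-TraF; D, +/SPG-GAL4; T, +/TraF). ETHR-RA is missing from both F bars of ETHR, NPFR-RB is near 13% in F and 6.81% to 8.02% elsewhere, and the split of Pdfr-RC and Pdfr-RD differs within genotypes.

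The 3 other comparisons gave no calls either. In feminized males against +/SPG-GAL4, 0 of the 10 gene sums and 0 of the 24 transcripts passed, beside 0.0102% of genes and 0% of transcripts. In feminized males against +/TraF these were 0 and 0, beside 0.102% of genes and 0.0613% of transcripts. In +/SPG-GAL4 against +/TraF they were 0 and 0, beside 0.215% and 0.0377%. All are edgeR quasi-likelihood tests with Benjamini-Hochberg adjustment.

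**Figure D5:**
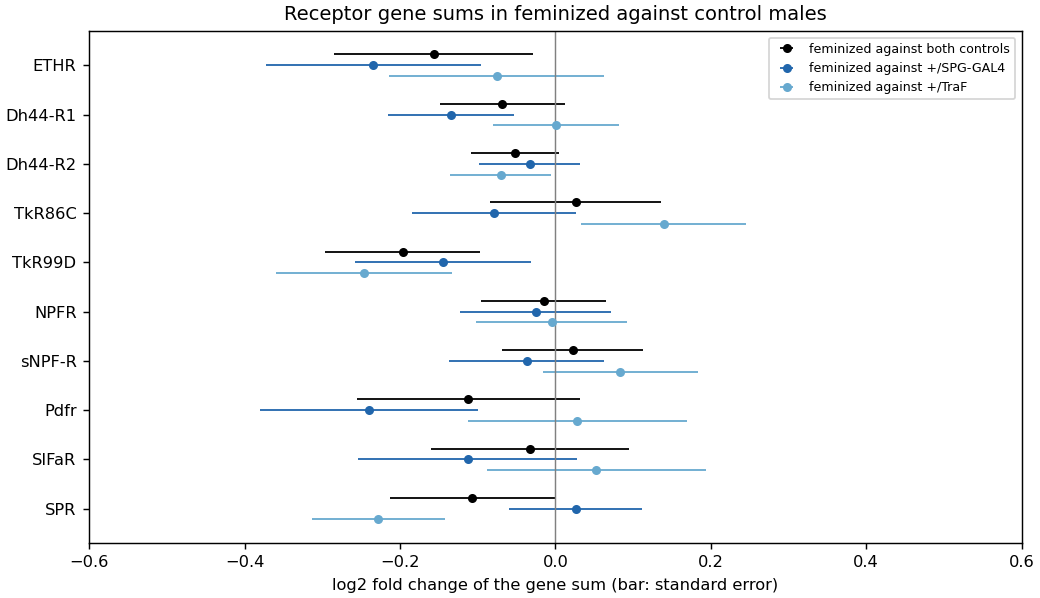
Log2 fold change of each receptor gene sum in feminized males (points, with standard errors) against both controls, +/SPG-GAL4 and +/TraF, which share the feminized libraries. The points against both controls lie between -0.20 and 0.03, and those of ETHR, Dh44-R2, TkR99D and NPFR are below 0 in all 3 comparisons.

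Library totals ran from 32839081 to 37608924 counts. +/SPG-GAL4 replicate 1 stood apart, with the highest level of 8 of the 10 receptor sums (all but *Dh44-R2* and *SPR*) and of 31.1% of all genes. The summed level of 5 neuron markers was 245382 and 233846 in feminized males, against 295518 and 207504 in +/SPG-GAL4 and 237682 and 214452 in +/TraF males, so it too was highest there. The gland markers *jhamt* and *Akh* summed to 313 and 295 in feminized males, against 634 and 147 in +/SPG-GAL4 and 362 and 347 in +/TraF males. The summed level of 7 glial markers was 114019 and 113053 in feminized males, against 96006 and 95293 in +/SPG-GAL4 and 113030 and 104660 in +/TraF males. None of the 7 passed, beside 0% of all genes. Of the 7, 2 were outside all 4 controls, beside 13.7% of all genes. These were *moody* (log2 fold change 0.11) and *alrm* (0.22), both above. Of the 7, 4 had log2 fold changes above 0 and 3 below. Those below were *repo*, the general glial marker (-0.03), *Gli* (-0.05) and *wrapper* (-0.03). Most of the summed glial level came from *Eaat1* and *alrm*, with 59795 and 29317 in feminized replicate 1. The 8 retina markers summed to 6062 and 8903 in feminized males, against 6127 and 9273 in +/SPG-GAL4 and 10362 and 9231 in +/TraF males. All 8 had log2 fold changes below 0 (median -0.41) and none passed. The part of these marker differences in the receptor values was not tested.

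Calls among the receptors changed when either +/SPG-GAL4 library was left out, not replicate 1 alone. *TkR99D* passed against +/TraF in both cases, although neither group of that comparison holds a +/SPG-GAL4 library. Against both controls, 0% of 9688 genes passed without +/SPG-GAL4 replicate 2. Without +/SPG-GAL4 replicate 1, the edgeR quasi-likelihood test against both controls called 2.46% of all genes and 0 of the 10 receptors, and against +/TraF 3.91% of all genes and 1 receptor, *TkR99D* (log2 fold change -0.23, SE 0.05, adjusted p = 0.0897). Without +/SPG-GAL4 replicate 2, so that replicate 1 alone stood for its genotype and was assumed to vary like the other groups, 20% of all genes passed against +/SPG-GAL4. The receptors among them were *TkR99D*, *Dh44-R1*, *SIFaR* and *Pdfr*, all lower in feminized males. Against +/TraF, 4.11% passed, with *TkR99D* and *SPR*. In +/SPG-GAL4 against +/TraF 38.4% passed, with 6 of the receptors, *TkR86C*, *SPR*, *Dh44-R1*, *sNPF-R*, *SIFaR* and *Pdfr*.

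The ligand genes of the 10 receptors were read from the same brains, and 0 of the 9 tested passed, beside 0% of all genes. For 2 of the 9 both feminized libraries were outside all 4 controls, beside 13.7% of all genes. *Dh44*, the ligand of both *Dh44-R1* and *Dh44-R2*, had 18256 and 17545 normalized counts in the feminized males, against 15764 and 13916 in +/SPG-GAL4 and 15027 and 14225 in +/TraF males. Both feminized libraries were above all 4 controls (log2 fold change 0.28, SE 0.09; unadjusted p = 0.0162, adjusted p = 0.898, edgeR quasi-likelihood test). *Dh44* too was on the list the study drew from these libraries, so its direction is not independent evidence. *sNPF* likewise was above all 4 controls, with 19315 and 18793 in feminized males, against 17677 and 17441 in +/SPG-GAL4 and 17958 and 17068 in +/TraF males, a log2 fold change of 0.12 (SE 0.08). *Tk* had a log2 fold change of 0.26 (SE 0.11; adjusted p = 0.999) and overlapped the controls.

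Among the other ligand genes *Mip*, *natalisin*, *NPF*, *Pdf* and *SIFa* had log2 fold changes of 0.08, 0.02, -0.01, -0.13 and -0.17, and all overlapped the controls. *ETH*, the ligand gene of *ETHR*, is known to be made by endocrine cells on the tracheae rather than in the brain, and had 7.67 and 7.82 normalized counts in the feminized males, against 6.81 and 10.3 in +/SPG-GAL4 and 12.4 and 13.7 in +/TraF males. *SP*, made in the male reproductive tract, had 0 to 2.07 and was not tested. The summed level of all 10 ligand genes was between 64202 and 73582.

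Of 29 other neuropeptide and peptide hormone receptors all were tested and 0 passed, beside 0% of all genes, with a median log2 fold change of -0.03. The smallest p-values were those of *Dh31-R*, the receptor of diuretic hormone 31, of *rk*, the receptor of the hormone bursicon, and of *Lkr*, the leucokinin receptor. *Dh31-R* had 2222 and 2184 normalized counts in the feminized males, against 2520 and 2367 in +/SPG-GAL4 and 2353 and 2502 in +/TraF males, below all 4 controls (log2 fold change -0.15, SE 0.06; unadjusted p = 0.0449, adjusted p = 0.999, edgeR quasi-likelihood test). *Lkr* was also below all 4 controls (-0.13, SE 0.07), while *rk* (-0.24, SE 0.12) overlapped them. *CapaR* too was below all 4 controls, and *RYa-R* was above them. In all, 4 of the 29 had both feminized libraries outside the controls, beside 13.7% of all genes.

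Of 29 genes of receptor signaling (G protein subunits, adenylyl cyclases, phospholipases, kinases and arrestin) 0 passed, beside 0% of all genes, and the median was 0.03. *Galphai*, the G protein subunit that inhibits adenylyl cyclase, had 2549 and 2739 normalized counts in the feminized males, against 2072 and 2066 in +/SPG-GAL4 and 2539 and 2403 in +/TraF males (log2 fold change 0.22, SE 0.10; adjusted p = 0.999, edgeR quasi-likelihood test). It was above all 4 controls, as was *Gbeta13F* (0.18, SE 0.11). These were the 2 of the 29 with both feminized libraries outside the controls, beside 13.7% of all genes. *Galphaf* was at -0.70 (SE 0.33) and overlapped the controls.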

How the data were processed

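Reads were 75-cycle paired ends of poly-A RNA. The authors ran Kallisto, and the deposited table holds one estimated count per transcript and library, in whole numbers and not normalized. Kallisto's version and annotation release are not given in the sources used here. Reads shared by transcripts are apportioned by that estimate, so a single transcript is less precise than its count.

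Transcripts were joined to Ensembl release 115 (BDGP6), where 28061 of 28071 matched. The 10 others were left out of gene sums. Counts were tested in R 4.3.3 with edgeR 4.0.16 (TMM, filterByExpr, quasi-likelihood test, Benjamini-Hochberg over all features, adjusted p below 0.1, prior count 0.125). Transcript usage was tested with diffSpliceDGE. Both control genotypes were pooled as controls, and single-control comparisons came from 1 fit with 3 genotypes. TPM used annotated lengths, since effective lengths were not used here. Gene sums and transcripts were scaled separately, so a gene of 1 transcript differs slightly between them.

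Named were all 10 genes and each transcript with the largest share of its gene, an unadjusted p below 0.05, a share differing by 10 points between genotype means, or 3 counts or fewer in one genotype and a mean of at least 10 in another. Of the ligand genes all were named, and of each other list the 3 smallest p. The members and lists were chosen with earlier results of these data known.

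Alternatives were DESeq2 1.42.0, limma-voom of limma 3.58.1, median-of-ratios factors, a threshold of 0.05, filters of none or of 10 counts per library, the Simes test of usage, shares per kilobase, 1 fit with 3 genotypes, the replicate number as a block and leaving out each library. Summing transcripts of the same coding part was chosen after seeing the data. The tests were tested on simulated data.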

Additional observations from a re-analysis of the deposited data

Results flagged for a closer look

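Among 25 sets of 4 control values of receptor genes and named transcripts, 3 had a library whose gap to its nearest neighbour, divided by the whole range, was above Dixon's critical value for 4 samples. Chance marks about 1 in 20 sets if each holds 4 independent values of 1 normal distribution. These sets pool both control genotypes and some hold the same counts, so that rate is no measure of the flags here. The *sNPF-R* gene sum was 2754 normalized counts in +/SPG-GAL4 replicate 1, against 2298 to 2331 in the other 3 controls (gap over range 0.926). The *SIFaR* gene sum was 1371 in the same library, against 1000 to 1056 in the other controls (0.848). The same counts scaled as the transcript *SIFaR-RC* were 1317, against 1019 to 1072, and were not flagged, so this flag depends on the scaling. *SPR-RC* had 146 in +/TraF replicate 2 and none in the other 3 controls. It was named because of this pattern of zero counts, so its flag is not a separate result. For *SIFaR* the log2 fold change of feminized males was 0.08 without +/SPG-GAL4 replicate 1, against -0.03 with it, and for *sNPF-R* it was 0.09 without and 0.02 with it. The neuron and gland marker sums were also highest in that library, and their part in these values was not tested.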

How the results depend on the processing

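No receptor gene passed against both controls under any of the 14 alternatives. DESeq2 called 1 transcript, *ETHR-RA*, against both controls, beside 1.25% of all transcripts. It also called *ETHR-RA* against each control alone, where the share of all transcripts called is not given here. Leaving out each library in turn gave 0 to 4 receptor genes called against +/SPG-GAL4, 0 to 2 against +/TraF and 0 to 6 between the controls. Each of these fits leaves 1 library in a genotype. The highest counts all came without +/SPG-GAL4 replicate 2, where 20%, 4.11% and 38.4% of all genes passed in the same comparisons. Whether the receptors stood apart from that background was not tested. *ETHR* usage was called under 11 of 13 alternatives (adjusted p 0.00616 to 0.0496 when each library was left out, diffSpliceDGE of edgeR), and 0 receptors were called with at least 10 counts in every library or with the same coding parts summed. Over all transcripts tested, deviations between replicates were nearly uncorrelated across genotypes (0.00, -0.02 and 0.04), which does not show that replicates were unpaired. The paper states that all genotypes were dissected in each sitting. In replicates 1 and 2 the muscle markers summed to 539 and 366 in feminized, 563 and 357 in +/SPG-GAL4 and 411 and 269 in +/TraF males. The retina marker sums had no such common order. With the replicate number as a block the receptor calls had the same counts, and *ETHR* usage had an adjusted p of 0.0204.

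Small fold changes turned sign when libraries were left out, with log2 ranges of -0.032 to 0.096 for *sNPF-R*, -0.050 to 0.032 for *NPFR*, -0.084 to 0.083 for *SIFaR*, -0.18 to 0.022 for *Pdfr* and -0.024 to 0.11 for *TkR86C*. The ranges were -0.069 to 0.12 for *sNPF-R-RB*, -0.11 to 0.38 for *Pdfr-RD* and -0.072 to 0.072 for *SIFaR-RC*. Without a filter *NPFR* was at 0.000246. The cause was not tested. Of all gene fold changes under the alternatives 131 of 140 kept their direction and side of the threshold, and of named transcripts 187 of 195. Per kilobase, shares in feminized males moved for *Dh44-R2-RB* (41.4%), *NPFR-RA* (80.5%), *NPFR-RB* (16.4%) and *sNPF-R-RB* (62.7%).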
